A study of Mus musculus with 10 samples.

Results

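The genes described here encode the subunits of oxidative phosphorylation, in the nucleus and in the mitochondrial genome. Members were taken by gene symbol from the protein-coding mouse genes: the Ndufa, Ndufb, Ndufc, Ndufs and Ndufv subunits of complex I, Sdha to Sdhd of complex II, the Uqcr genes of complex III, the Cox4 to Cox8 genes of complex IV, the Atp5 genes of complex V, and the mt- genes. The rule found 98 genes among 55471 identifiers, 85 nuclear and 13 mitochondrial. Levels of expression played no part in the rule. Ndufa4 and Ndufa4l2 carry a complex I name and are grouped here with complex IV, where Ndufa4 is known to sit. The filter of 10 or more counts in at least 5 libraries left 93 of the 98 (80 nuclear and all 13 mitochondrial) among 17101 genes tested.

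RNA came from the whole brain of 10 wild-type (WT) Swiss Webster mouse pups, all with hypoxia-ischemia, an injury in which the brain loses blood flow and oxygen. The series gives neonatal day 5 after birth, and the interval between injury and collection, the dose and the litters are not given in the labels. The untreated group, mice 1 to 5, had the injury and no treatment, and the treated group, mice 6 to 10, had the injury and allopregnanolone (spelled Allopregananolone in the labels). Allopregnanolone is a steroid made from progesterone that enhances the response of GABA-A receptors. Uninjured pups were not analysed here, so no value below is a change from the healthy brain.

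The respiratory chain passes electrons from NADH (complex I) or succinate (complex II) through complex III to complex IV, which reduces oxygen. The proton gradient built by complexes I, III and IV drives complex V, the ATP synthase. Complex II is encoded in the nucleus alone, while the other complexes combine nuclear subunits with subunits made inside the mitochondrion from its own genome. In the brain this pathway supplies most of the ATP, and loss of oxygen stops it at complex IV.

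Libraries held 18656836 to 34270723 estimated counts. Untreated libraries 1 to 3 carry another name prefix than the 7 other libraries, and the labels do not say what the prefix marks. Without these 3 libraries 105 genes passed the threshold in place of 1926, so the calls on members and related genes below are also given without them. The calls on cell type markers that follow are from all libraries only. Of the cell type markers, the summed level of 5 oligodendrocyte genes was 1783 to 3378 CPM (the count of a gene relative to the scaled total of its library) in untreated and 5192 to 6974 CPM in treated libraries, and 5 of 5 rose, with none at 0. The sum of 5 neuronal markers lay between 4426 and 4822 CPM in untreated libraries and between 4176 and 4726 CPM in treated ones, and 2 of the 5 fell. Of 5 astrocyte and 5 microglia markers, 1 each rose. Striated muscle markers (5 genes) stayed at 4.75 to 6.83 CPM untreated and 4.84 to 6.50 CPM treated, and heart muscle markers (4 genes) at 1.44 to 2.81 and 1.54 to 2.77 CPM.

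With allopregnanolone 8 of the 93 members tested rose and 0 fell. The risers were Ndufs3, Ndufs7 and Ndufa8 of complex I, Uqcrc1 of complex III, and Cox4i1, Cox6a1, Cox8a and Ndufa4l2, placed with complex IV, and all but Ndufa4l2 rose by 15% to 22% in fold terms (1.15-fold to 1.22-fold). Changes were tested with the quasi-likelihood test of edgeR, two-sided, and a gene counts as changed at a Benjamini-Hochberg adjusted p under 0.05 over all genes. By this rule 6.61% of all genes rose and 4.65% fell, so that 8.60% of members rising lies near the background. None of the members had an unadjusted p under 0.05 in the downward direction with edgeR, DESeq2 or limma. At that p in edgeR, 18 of the 80 nuclear members (22.5%) were higher and 0 lower, beside 14.4% and 13.1% of all genes. In whole-brain RNA, fewer cells of a type and less RNA per cell cannot be told apart.

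The differences were small across the members. The log2 fold change (treated over untreated) was within 0.25 of 0 for 90 of 93, the exceptions being Ndufs7, Cox6b2 and Ndufa4l2. The 95% interval of the fold change lay within 1.5-fold in both directions for 89, and reached past it for mt-Nd6, Cox4i2, Cox6b2 and Ndufa4l2, which have low counts. The median log2 fold change was 0.06 for the 80 nuclear members and 0.11 for the 13 mitochondrial ones, beside -0.0046 for all genes. Scaling by library totals alone gave -0.0024 for the nuclear members and 0.05 for the mitochondrial ones, beside -0.064 for all genes. A change of scaling shifts all genes by nearly the same amount, so the gap of 0.06 under both scalings is not separate support.

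**Figure D1:**
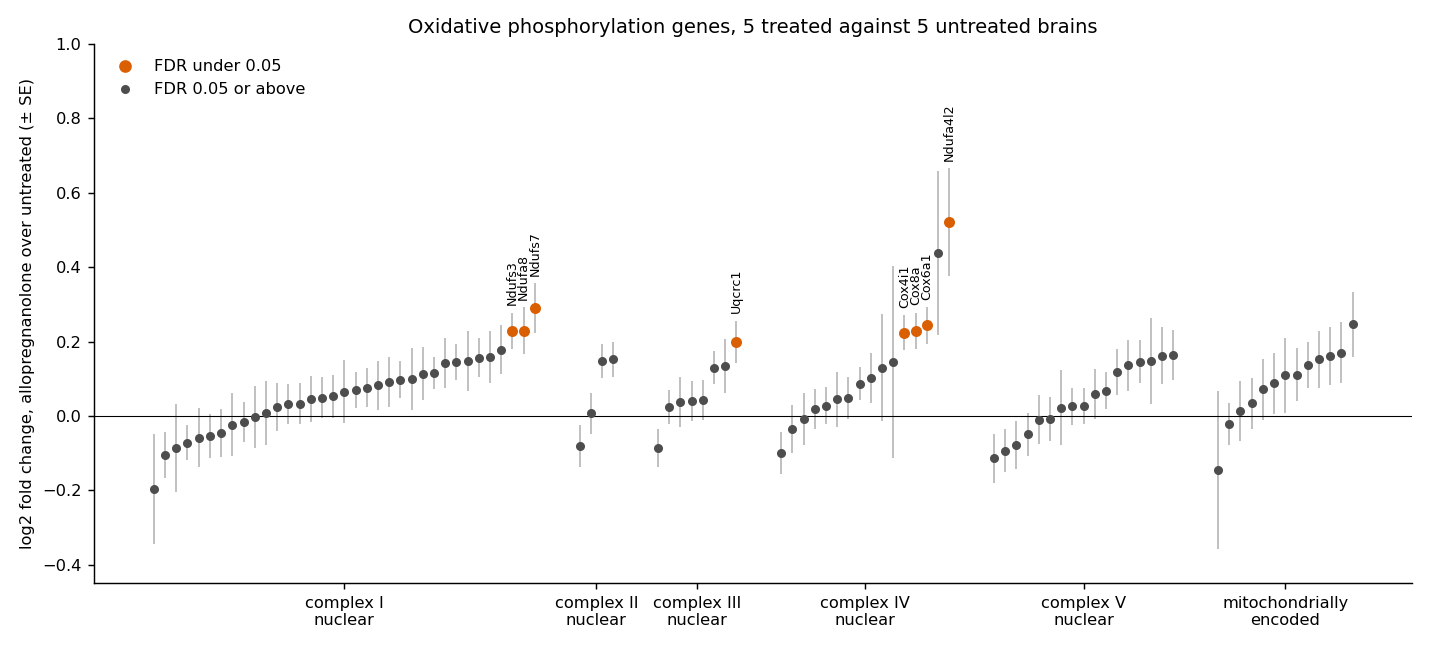
Log2 fold change of the 93 members tested (treated over untreated, points with SE), sorted within each nuclear complex and within the mitochondrially encoded genes. Orange points are the 8 members past the threshold, all above 0, and grey points are the 85 others.

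Of the members that rose in complex IV, Cox4i1, Cox6a1 and Cox8a are parts of the enzyme that hands electrons to oxygen. Cox6a1, a small subunit with a single membrane span, was the member with the smallest p. Its level was 228.5, 254.7, 218.9, 228.2 and 240.7 CPM in untreated mice 1 to 5, and 284.6, 281.8, 268.9, 279.5 and 271.6 CPM in treated mice 6 to 10. Every treated library lay above every untreated one. The means were 234.2 ± 13.8 and 277.3 ± 6.75 CPM (SD, n = 5 each), a log2 fold change of 0.24 ± 0.05 (SE) with an edgeR adjusted p of 0.00807.

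Cox4i1, the ubiquitous form of the largest nuclear subunit, was at 159.7, 159.1, 143.9, 153.9 and 149.3 CPM in untreated and at 170.1, 183.1, 176.8, 186.9 and 177.7 CPM in treated libraries. These ranges also did not overlap. The log2 fold change was 0.22 ± 0.05 with an edgeR adjusted p of 0.00935. Cox8a, a very small subunit and the nuclear member of complex IV with the highest mean CPM, was at 234.5, 255.4, 226.2, 239.9 and 245.2 CPM without and 262.9, 294.5, 287.4, 275.3 and 287.5 CPM with allopregnanolone. Again the lowest treated library was above the highest untreated one (log2 fold change 0.23 ± 0.05, edgeR adjusted p 0.0112). Cox4i1 shares 154 exon positions with Emc8, a neighbouring gene on the opposite strand. Whether the counting used the strand is not given, so the count of Cox4i1 may hold reads of that gene.

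Ndufa4l2, a paralogue of the complex IV-associated subunit Ndufa4 that is known to be induced by low oxygen, had the largest difference and a low level. Untreated libraries held 2.89, 3.36, 2.85, 3.23 and 2.93 CPM, and treated libraries 4.92, 5.06, 3.32, 3.87 and 4.69 CPM. Treated mouse 8 fell inside the untreated range and the other 4 were above it. The fold change was 1.43 (95% interval 1.16 to 1.78, log2 0.52 ± 0.14, edgeR adjusted p 0.0345), from 66 to 165 counts per library. Its exons overlap those of Shmt2 on the opposite strand.

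In complex I, the entry point for electrons from NADH, 3 of 35 nuclear members rose (8.57%, beside 6.61% of all genes). Ndufs7, a core subunit with an iron-sulfur cluster next to the quinone site, was at 44.1, 46.4, 44.6, 40.7 and 49.3 CPM in untreated and 58.1, 59.8, 51.6, 57.1 and 48.8 CPM in treated libraries. Treated mouse 10 lay just below untreated mouse 5, and all other treated libraries were higher than every untreated one. Its log2 fold change was 0.29 ± 0.07 (edgeR adjusted p 0.0158). Ndufs3, another core subunit of the arm that projects into the matrix, was at 38.6, 41.7, 40.8, 39.8 and 37.0 CPM in untreated libraries, and at 48.0, 45.4, 44.4, 47.9 and 46.0 CPM in treated ones. Here the groups did not overlap (log2 fold change 0.23 ± 0.05, edgeR adjusted p 0.0109). Its exons overlap those of Kbtbd4 on the opposite strand.

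Ndufa8, an accessory subunit on the intermembrane side, was at 51.5, 59.9, 50.6, 45.8 and 51.3 CPM in untreated and 58.1, 60.2, 59.5, 62.5 and 63.5 CPM in treated libraries. Untreated mouse 2 reached into the treated range (log2 fold change 0.23 ± 0.06, edgeR adjusted p 0.0351). Uqcrc1, a core protein of complex III related to mitochondrial processing peptidases, was at 172.7, 186.7, 165.5, 163.7 and 192.8 CPM in untreated libraries, and at 211.0, 214.2, 199.2, 197.7 and 189.6 CPM in treated ones. Treated mouse 10 lay below untreated mouse 5 (log2 fold change 0.20 ± 0.06, edgeR adjusted p 0.0402).

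**Figure D2:**
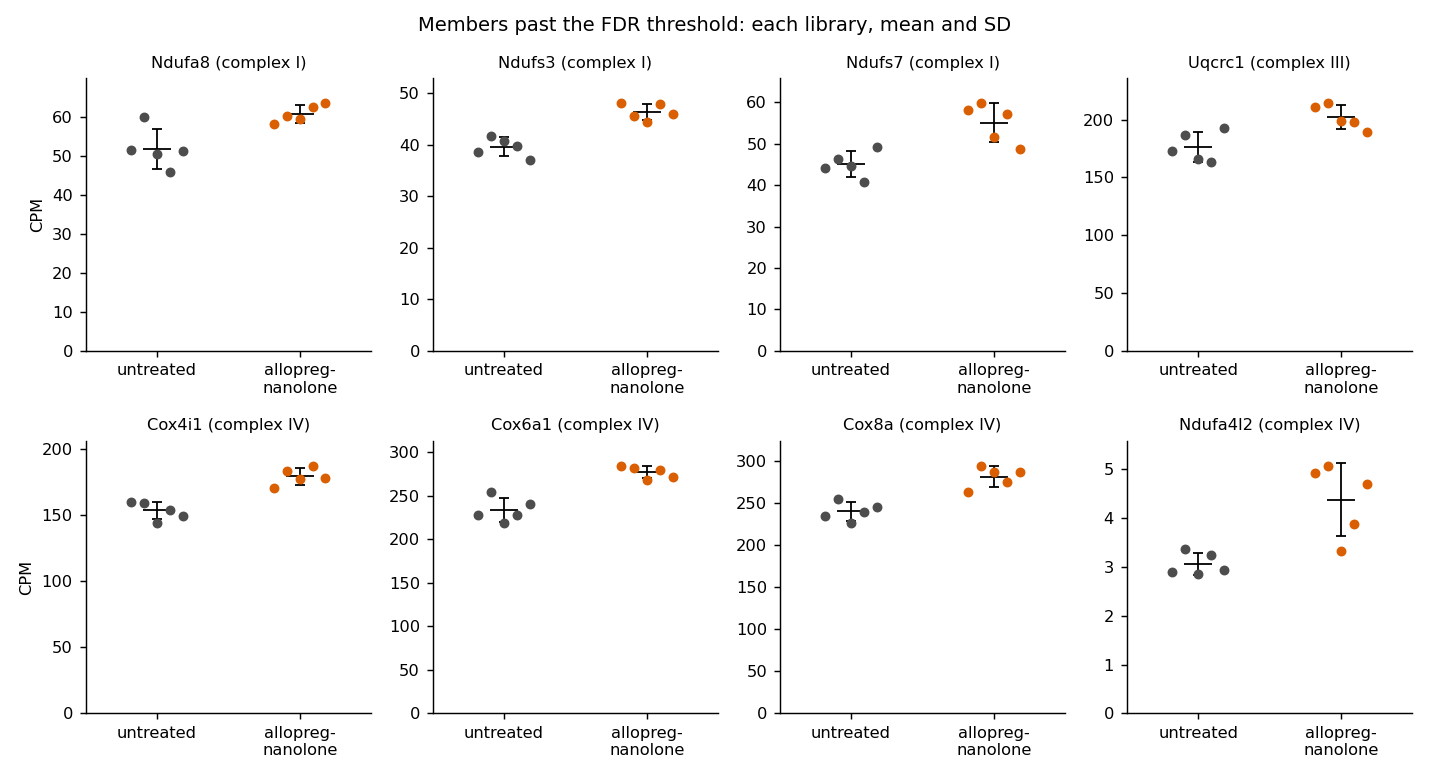
CPM of the 8 members past the threshold in each library (points), with mean and SD (black, n = 5 per group) and axes from 0. Untreated and treated points do not overlap for Ndufs3, Cox4i1, Cox6a1 and Cox8a, and overlap for the other 4.

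Over all members, treated libraries were all above untreated ones for 7 and all below for 0, where 5.44% and 4.2% of all genes were separated in these directions. Beside the 4 named above these included Ndufa3 and Sdha, which missed the threshold with edgeR adjusted p values of 0.0969 and 0.051. With library totals alone 4 members rose and 0 fell (Cox6a1, Cox4i1, Cox8a and Ndufs7), against 4.59% of all genes rising and 8.5% falling. DESeq2 called 14 members higher and 0 lower, beside 8.76% and 6.6% of all genes. Leaving out 1 library at a time gave 5 to 11 members higher, beside 645 to 1360 of all genes higher. The count of 11 came without untreated mouse 5, where 1360 of 16959 genes were higher. Cox4i1, Cox6a1, Cox8a, Ndufs3 and Ndufs7 remained past the threshold in each of these 10 fits, while Uqcrc1, Ndufa8 and Ndufa4l2 each lost it in some. Without untreated mouse 1, 3 or 4, or without treated mouse 7, the count of members was 5. In that order, 716, 645, 649 and 766 genes were higher in these fits, out of 16907 to 17015 tested.

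Without untreated libraries 1 to 3, which leaves 2 untreated against 5 treated libraries, 0 of the members passed in edgeR, beside 0.486% of all genes higher and 0.152% lower. At an unadjusted p under 0.05, 12 nuclear members were higher and 1 was lower in that fit (15.0% of 80 higher), beside 8.79% and 7.36% of all genes at the same p. With the name prefix as a term of the edgeR model, 0 members passed again, beside 0.696% and 0.357% of all genes, and 15 nuclear members were higher and 1 lower at an unadjusted p under 0.05 (18.8% of 80 higher), beside 9.82% and 7.85% of all genes. Except for Ndufa8, whose log2 fold change went from 0.23 to 0.32 without untreated libraries 1 to 3, the sizes of the differences moved little. Without those libraries the log2 fold change was 0.24 ± 0.07 for Cox6a1 (edgeR adjusted p 0.125), 0.23 ± 0.07 for Cox4i1 (adjusted p 0.134), 0.21 ± 0.07 for Cox8a (adjusted p 0.185) and 0.27 ± 0.07 for Ndufs3 (adjusted p 0.124). It was 0.29 ± 0.10 for Ndufs7 (edgeR adjusted p 0.213), 0.32 ± 0.08 for Ndufa8 (adjusted p 0.0863), 0.18 ± 0.08 for Uqcrc1 (adjusted p 0.32) and 0.50 ± 0.22 for Ndufa4l2 (adjusted p 0.286). The 5 oligodendrocyte markers differed between the groups beside all of these members, and their part in the result was not tested.

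Upstream sequence is shown for Cox6a1 and Cox8a, since both are complex IV subunits, both rose by a like amount, and their start regions differ in the motif most tied to this pathway. NRF1 (nuclear respiratory factor 1) is a transcription factor whose sites lie in many promoters of nuclear respiratory genes. Capitals mark matches to GCGCANGCG on either strand, and the lines give the strand of the gene from RefSeq (GRCm38.p6), ending where the gene begins in GENCODE M21, so that 23 bases before the RefSeq start of Cox6a1 are left out: chr5:115348982-115349208 (minus strand) for Cox6a1 and chr19:7217617-7217866 (minus strand) for Cox8a.
Cox6a1: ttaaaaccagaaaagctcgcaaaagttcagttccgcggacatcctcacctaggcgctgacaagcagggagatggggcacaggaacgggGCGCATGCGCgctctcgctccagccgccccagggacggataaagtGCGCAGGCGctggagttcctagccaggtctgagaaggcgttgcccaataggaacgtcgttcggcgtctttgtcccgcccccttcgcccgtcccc
Cox8a: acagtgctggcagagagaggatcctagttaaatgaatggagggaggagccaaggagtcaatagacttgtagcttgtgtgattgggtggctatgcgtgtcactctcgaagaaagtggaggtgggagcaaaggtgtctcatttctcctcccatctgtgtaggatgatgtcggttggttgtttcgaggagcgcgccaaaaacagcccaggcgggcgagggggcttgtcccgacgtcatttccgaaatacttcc

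Cox6a1 holds 3 matches in the 250 bases before its RefSeq start, the first pair overlapping on opposite strands and beginning 162 bases before the start, the last 117 bases before it. Cox8a holds none. A RefSeq window was found for 66 of the 84 symbols of nuclear members, and 14 of these 66 windows (21.2%) held a match, against 5.86% of 27025 genes. Of the 8 members that rose, 6 had a window, and 2 of these (Cox6a1 and Ndufa8) held a match. The other motifs searched, on both strands, were CCGGAAGT (GABPA), in 4.55% of member windows and 3.23% of all, TCAAGGTCA (ESRRA), in 1.52% and 0.422%, and AAGATGGCG (YY1), in 1.52% and 0.71%. A match is a string of letters, and binding was not measured here.

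The other core subunits did not pass the threshold, and their intervals bound how far they could differ. In complex I, Ndufs1, the largest subunit with iron-sulfur clusters, had a log2 fold change of 0.02 ± 0.07 (62.6 ± 5.27 CPM untreated, 63.7 ± 4.14 CPM treated). Ndufv1, which binds NADH, had 0.10 ± 0.05 (45.8 ± 2.79 and 49.0 ± 0.62 CPM). The lowest value in complex I was that of Ndufs5, at -0.20 ± 0.15.

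Complex II oxidises succinate and links the chain to the tricarboxylic acid cycle. Its flavoprotein Sdha was at 134.9, 135.7, 128.8, 123.2 and 129.9 CPM in untreated and 140.8, 138.3, 148.5, 144.6 and 151.2 CPM in treated libraries. The groups did not overlap, and the edgeR adjusted p of 0.051 (log2 fold change 0.15 ± 0.05) was just short of the threshold. The membrane anchor Sdhc had 0.15 ± 0.05 (edgeR adjusted p 0.055), the iron-sulfur protein Sdhb 0.01 ± 0.06, and the second anchor Sdhd -0.08 ± 0.06. DESeq2 and the filter of 100 counts called both Sdha and Sdhc higher. With library totals alone both log2 fold changes were smaller and neither gene passed. Untreated mouse 1 then lies above treated mouse 7 for Sdha, so its groups overlap under that scaling. Neither gene passed without untreated libraries 1 to 3 or with the name prefix as a term.

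In complex III the Rieske iron-sulfur protein Uqcrfs1 had a log2 fold change of 0.04 ± 0.05 (64.5 ± 3.50 and 66.3 ± 3.50 CPM). Uqcrc2, the partner of Uqcrc1 in the core, had -0.09 ± 0.05 (119.3 ± 6.18 and 112.5 ± 5.30 CPM, edgeR adjusted p 0.307), the lowest of the complex. The 2 core proteins thus lay on opposite sides of 0, and the difference between them was not tested. In complex V 0 of 17 members tested passed in edgeR or DESeq2, and Atp5d and Atp5k had an unadjusted p under 0.05, both upward. The catalytic head subunits were the most abundant nuclear members of all, with Atp5b at 629.0 ± 21.6 CPM untreated and 659.6 ± 29.9 CPM treated (log2 fold change 0.07 ± 0.05) and Atp5a1 at 584.7 ± 28.8 and 595.3 ± 24.0 CPM (0.03 ± 0.05). The range in the complex ran from Atp5e (-0.11 ± 0.07), the epsilon subunit of the central stalk, to Atp5k (0.16 ± 0.07), the e subunit of the membrane part.

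Summed over members, the nuclear subunits of complex I held 1419 to 1506 CPM in untreated and 1508 to 1571 CPM in treated libraries. The groups stayed apart only narrowly, with untreated mouse 4 at 1505.9 CPM and treated mouse 8 at 1507.7 CPM. The scaling factors of these 2 libraries were 1.04 and 0.985, so their order turns around with library totals alone. The nuclear sums of complex II were 313.0 to 338.2 and 335.2 to 356.1 CPM, those of complex III 629.7 to 699.9 and 692.1 to 711.2 CPM, those of complex IV 1354 to 1527 and 1516 to 1605 CPM, and those of complex V 2372 to 2578 and 2486 to 2645 CPM. These 4 overlapped between groups. The ratio of the group means was 1.05 for complex I, 1.06 for II, 1.06 for III, 1.09 for IV and 1.04 for V. No test was made on a sum.

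None of the 13 mitochondrially encoded members passed the threshold in edgeR, where mt-Nd5 and mt-Co1 had an unadjusted p under 0.05, both upward. DESeq2 called mt-Nd5 alone, and limma none. Of the 13, 11 had a positive log2 fold change. Their share of all counts was 7.45% to 9.15% in untreated (mean 8.05%) and 7.93% to 9.07% in treated libraries (mean 8.46%). The ranges overlap almost fully.

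The largest value was that of mt-Nd5, a proton-pumping subunit of complex I. It was at 5328, 5385, 5200.0, 6685 and 6651 CPM in untreated mice 1 to 5 and at 7503, 7655, 6614, 6386 and 6552 CPM in treated mice 6 to 10. Untreated mice 4 and 5 sat among the treated libraries, and untreated mice 1 to 3 below them. The log2 fold change was 0.25 ± 0.09 (edgeR adjusted p 0.0831). mt-Co1, the catalytic subunit of complex IV and the most abundant member, was at 17792, 17417, 16677, 20041 and 18834 CPM in untreated libraries, and at 20099, 21193, 19795, 18924 and 19784 CPM in treated ones. Its log2 fold change was 0.14 ± 0.06 (edgeR adjusted p 0.173). Untreated mice 1 to 3 were again below untreated mice 4 and 5, but here mouse 5 also lay below every treated library.

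The other mitochondrial messages of the heavy strand gave log2 fold changes of 0.11 ± 0.07 for mt-Nd1, 0.09 ± 0.08 for mt-Nd2, -0.02 ± 0.06 for mt-Nd3, 0.16 ± 0.08 for mt-Nd4 and 0.11 ± 0.10 for mt-Nd4l, all membrane subunits of complex I. In complexes III and IV, mt-Cytb (cytochrome b) had 0.15 ± 0.08, mt-Co2 0.17 ± 0.08 and mt-Co3 0.03 ± 0.07. The ATP synthase subunits mt-Atp6 and mt-Atp8 had 0.07 ± 0.08 and 0.01 ± 0.08. mt-Nd6, the one subunit read from the light strand, had -0.14 ± 0.21 at 4.03 ± 1.49 CPM untreated and 3.65 ± 0.45 CPM treated.

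The sum of the 13 members was 71628 to 75640 CPM in untreated libraries 1 to 3 and 84242 to 87932 CPM in untreated libraries 4 and 5, beside 79875 to 95130 CPM in the treated libraries. The mean of untreated 4 and 5 was 86087 CPM, that of untreated 1 to 3 was 74125 CPM, and that of the treated group 86406 CPM. Without untreated 1 to 3 the median log2 fold change of the mitochondrial members was -0.036, and 8 of 13 were negative. With the name prefix as a term it was -0.031. The positive median over all libraries is therefore not present among libraries of 1 prefix. The nuclear members did not follow the prefix in this way: their sum averaged 6361 CPM in untreated 1 to 3, 6323 CPM in untreated 4 and 5, and 6712 CPM in treated libraries.

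**Figure D3:**
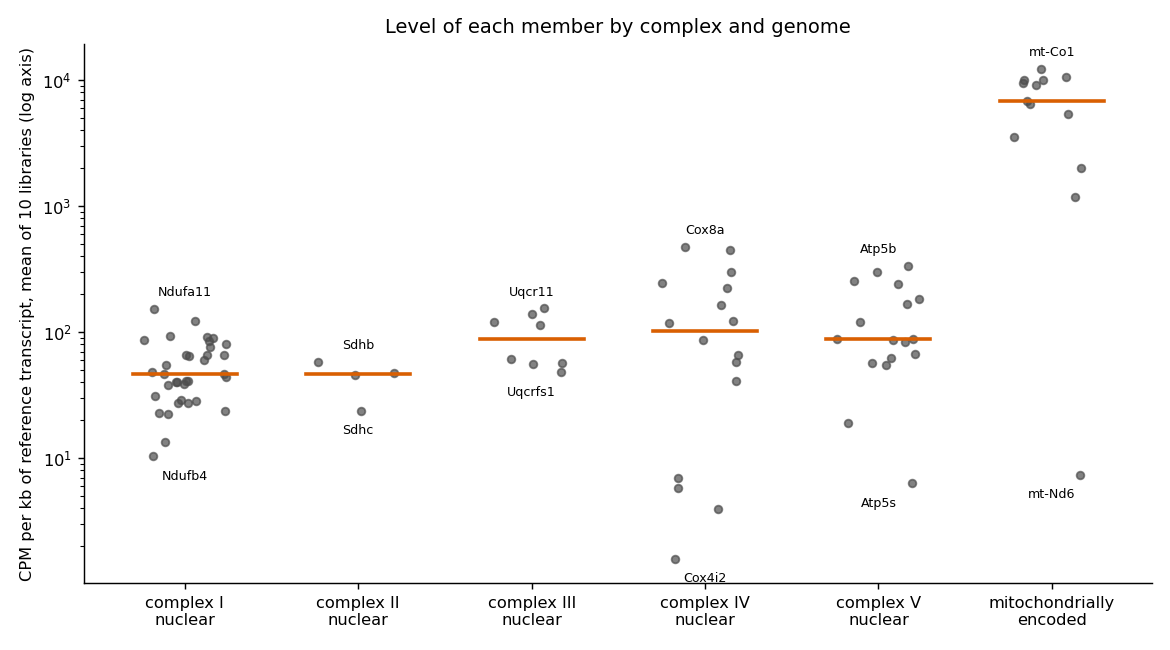
Mean level over 10 libraries in CPM per kilobase of reference transcript (log axis) of the 93 members tested, by nuclear complex and for the mitochondrially encoded genes, with the median as an orange line. The highest and the lowest member of each column are named, and mt-Nd6 sits far below the other 12 mitochondrial members. Counts of pseudogene copies are not included.

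Per kilobase of transcript, the mitochondrial messages had a median of 6786 CPM per kb and the nuclear members a median of 61.5 CPM per kb. Among nuclear members, Cox8a (474.3 CPM per kb), Cox6a1 (447.9), Atp5b (336.3) and Atp5g3 (302.1) were highest, and Cox4i2 (1.59) lowest. The mitochondrial levels ran from 12334 CPM per kb for mt-Co1 and 10554 for mt-Nd1 down to 1173 for mt-Nd3 and 7.40 for mt-Nd6. All these levels are means over both treatment groups and leave out pseudogene copies. Identical copies were listed at 5478 CPM beside 6757 CPM for mt-Atp6, and at 4489 CPM beside 6235 CPM for mt-Co2. The levels of mitochondrial members with such copies, and the order of the highest, are therefore uncertain. The median coefficient of variation between libraries of 1 group was 6.48% untreated and 5.00% treated for nuclear members, and 9.43% and 8.74% for mitochondrial ones.

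Several subunits exist as tissue-specific isoforms, and the forms known from heart and skeletal muscle were minor in these brains. Shares per kilobase are given over all libraries. Cox4i1 made up 99.3% of COX4 and Cox4i2, the form tied to low oxygen and lung, 0.708%. Cox6a1 made up 98.7% of COX6A against 1.28% for the muscle form Cox6a2, and Cox8a 99.9% of COX8 against 0.0516% for the muscle form Cox8b. Cox6b1 made up 97.7% of COX6B and the testis form Cox6b2 2.29%.

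In the COX7A family, Cox7a2 held 58.2%, Cox7a2l, a factor that joins complexes III and IV into supercomplexes, 41.1%, and the muscle form Cox7a1 0.698%. Ndufa4 made up 98.4% of its pair with Ndufa4l2, whose share was 1.28% to 1.39% in untreated and 1.42% to 2.17% in treated libraries. These share ranges did not overlap, and the share was not tested apart from the gene itself. For the c ring of the ATP synthase, 3 genes encode the same mature protein. Of their listed level, Atp5g3 held 60.0%, Atp5g1 36.2% and Atp5g2 3.78%. Log2 fold changes were 0.14 ± 0.07, 0.16 ± 0.08 and 0.15 ± 0.12 for these 3. The identical pseudogene Gm10175 was listed at 69.6 CPM beside 13.9 CPM for Atp5g2. The near-identical pseudogene Gm10039 was at 33.3 CPM beside 108.5 CPM for Atp5g1. The shares of the c ring genes leave these pseudogenes out and are uncertain. Cox6b2, which did not pass, had a log2 fold change of 0.44 ± 0.22 at 2.52 ± 0.40 CPM untreated and 3.38 ± 1.15 CPM treated (edgeR adjusted p 0.222).

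The 5 members that did not pass the filter were Cox7a1, Cox7b2, Cox8b, Cox8c and a second identifier named Atp5o. Cox7a1 had 0.355 ± 0.111 CPM untreated and 0.192 ± 0.158 CPM treated, and Cox7b2 0.118 ± 0.066 and 0.114 ± 0.023 CPM. Cox8b had 0.0737 ± 0.0587 and 0.104 ± 0.106 CPM. Cox8c was above 0 in untreated mouse 4 alone, and the second Atp5o identifier in treated mouse 6 alone. No fold change is given for these.

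Reads of some members can be shared with near-identical copies elsewhere in the genome. In a comparison of reference transcripts, 51 pseudogenes matched 31 members at 95% identity or more over at least 80% of the copy, and 22 of the 51 were above 1 CPM. The largest are on chromosome 1 and repeat stretches of the mitochondrial genome. The first 50 bases of mt-Atp6 (chrM:7927-8607, plus strand, mm10) are shown because its copy Gm10925 (chromosome 1) repeats them, and 678 bases in all, letter for letter.
mt-Atp6: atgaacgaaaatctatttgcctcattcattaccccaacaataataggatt

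Gm10925 was listed at 5587 CPM untreated and 5368 CPM treated, beside 6590 and 6924 CPM for mt-Atp6 itself. Identical copies were also counted for mt-Co2 (Gm28661, 4388 and 4590 CPM), mt-Co3 (Gm28437, 3501 and 3520 CPM), mt-Nd4 (Gm28439, 1585 and 1648 CPM) and mt-Nd4l (Gm10222, 569.3 and 591.8 CPM). All copies of mitochondrial members together took a mean of 1.78% of counts in untreated and 1.74% in treated libraries. Adding them gave a mitochondrial share of 9.83% ± 0.78 untreated and 10.2% ± 0.47 treated. With the copies added, the log2 fold change of mt-Atp6 was 0.01 in place of 0.07, the median of the mitochondrial members was 0.09, and the same 8 members were past the threshold. One copy, Gm29216 (99.8% identical to part of mt-Co1), rose by itself, with a log2 fold change of 0.20 (edgeR adjusted p 0.036), and its groups did not overlap. Without untreated libraries 1 to 3 it had 0.25 ± 0.07 (edgeR adjusted p 0.141).

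Among nuclear members, 4 were listed below a copy of their own. Atp5g2 averaged 13.9 CPM and its copy Gm10175 69.6 CPM, Ndufb4 10.0 and Ndufb4c 29.4 CPM, Ndufa12 37.1 and Gm15920 52.2 CPM, and Cox7a2l 44.1 and Gm6969 51.1 CPM. The level of these members, and their share of a family, is therefore uncertain. Gm15920 rose, with a log2 fold change of 0.20 (edgeR adjusted p 0.0346), while Ndufa12 had 0.05 ± 0.06. Without untreated libraries 1 to 3 Gm15920 had 0.12 ± 0.08 (edgeR adjusted p 0.477). With the copies added, the log2 fold change of Ndufa12 was 0.14 (edgeR adjusted p 0.098).

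Ndufs5, a small accessory subunit of complex I, and its copy moved against each other in 2 mice. The processed pseudogene BC002163 (chr16:42955631-42955949, plus strand, mm10) matches 319 bases of the message, which include the whole coding part of 318 bases before the stop codon, with 2 differences, T81C and A105G (base of Ndufs5, position counted from 1 at the A of its start codon, base of the copy). The stretch around both is shown because within the aligned part only these 2 bases, in capitals, tell the pair apart. Ndufs5 lies at chr4:123712710-123718202 (minus strand, mm10).
Ndufs5: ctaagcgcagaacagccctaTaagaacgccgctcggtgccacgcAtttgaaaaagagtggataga
BC002163: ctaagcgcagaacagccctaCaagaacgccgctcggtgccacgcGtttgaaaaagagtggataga

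Ndufs5 was at 16.6, 16.8, 15.7, 17.0 and 21.7 CPM in untreated and 17.2, 15.2, 9.43, 17.3 and 17.3 CPM in treated libraries. BC002163 was at 4.37, 4.61, 4.63, 5.22 and 1.24 CPM in untreated and 3.93, 5.34, 8.98, 6.13 and 4.69 CPM in treated libraries. Where Ndufs5 was highest, in untreated mouse 5, the copy was lowest, and where Ndufs5 was lowest, in treated mouse 8, the copy was highest. The copy held 5.43% of the pair in untreated mouse 5 and 48.8% in treated mouse 8, and 18.6% to 26.2% in the other 8 mice. The sum of the pair was 22.9 CPM in untreated mouse 5 and 18.4 CPM in treated mouse 8, with 20.3 to 23.4 CPM in the others. With the copy added, the log2 fold change of Ndufs5, the lowest among the nuclear members, was -0.03 ± 0.07 in place of -0.20 ± 0.15.

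**Figure D4:**
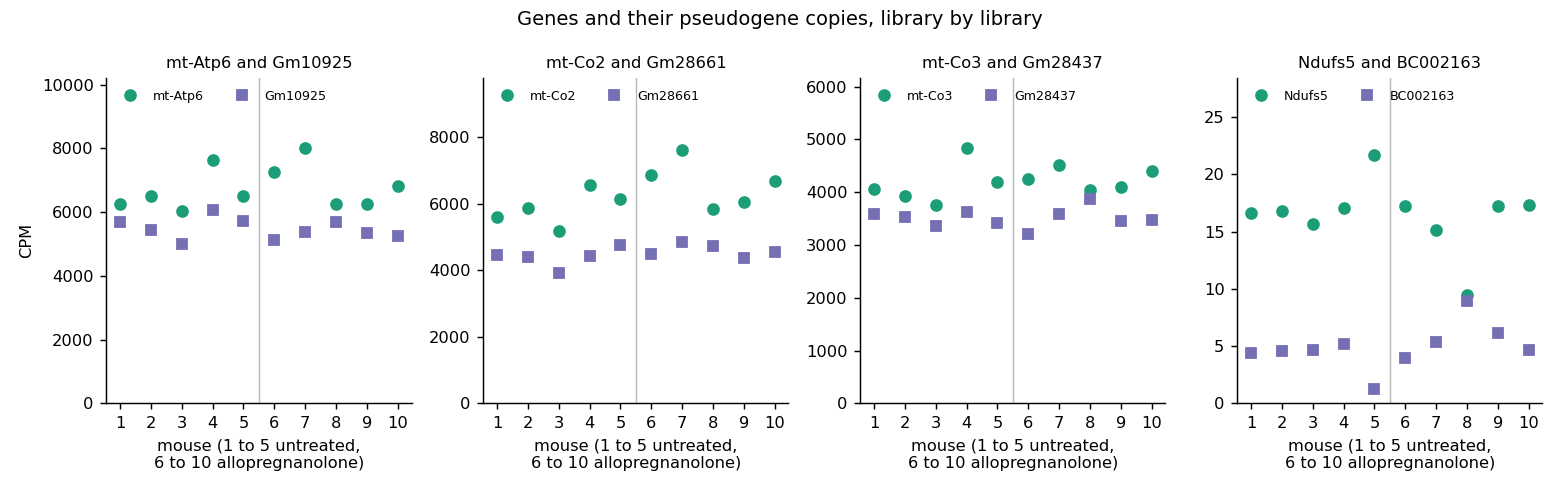
CPM of 3 mitochondrial members and of Ndufs5 (green circles) beside that of a pseudogene copy (purple squares) in each mouse, untreated to the left of the grey line and treated to the right, with axes from 0. The copies of mt-Atp6, mt-Co2 and mt-Co3 lie at 0.811, 0.72 and 0.835 of the level of the gene on average, and Ndufs5 and BC002163 move in opposite directions in mice 5 and 8.

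Genes that build, regulate and feed the chain were taken from lists outside the members, and each count below stands beside 6.61% of all genes rising and 4.65% falling. Of 57 assembly factors of the 5 complexes, 1 rose and 0 fell. The riser was Dmac2, a factor for the membrane arm of complex I, at 31.9 ± 4.33 CPM untreated and 40.7 ± 2.66 CPM treated (log2 fold change 0.35 ± 0.08, edgeR adjusted p 0.0172). Of 78 mitochondrial ribosomal proteins, 4 rose (Mrpl10, Mrps12, Mrps34 and Mrpl4, log2 fold changes of 0.34, 0.28, 0.26 and 0.24) and 0 fell. The median over these 78 was 0.01.

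Of 18 nuclear regulators, 2 rose: Ppard, a fatty-acid-activated nuclear receptor (log2 fold change 0.46 ± 0.09, edgeR adjusted p 0.00777), and Esrrb, an orphan receptor at a low level (2.49 ± 0.65 and 4.75 ± 2.03 CPM, log2 fold change 0.95 ± 0.28). The regulators most tied to respiratory genes did not pass. Ppargc1a, the coactivator PGC-1alpha, was at 64.2 ± 3.30 CPM untreated and 66.4 ± 2.01 CPM treated (log2 fold change 0.05 ± 0.05). Nrf1 had -0.09 ± 0.09, Esrra 0.11 ± 0.07, Gabpa -0.12 ± 0.06, and Tfam, which packages and transcribes mitochondrial DNA, -0.02 ± 0.10. Of 27 genes of mitochondrial transcription and replication, 1 fell, Pnpt1, the mitochondrial polynucleotide phosphorylase (log2 fold change -0.28 ± 0.07, edgeR adjusted p 0.0303).

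Genes of fuel entry were among those that rose. Pdk2, a kinase that switches off pyruvate dehydrogenase, was at 75.0, 79.1, 64.3, 55.6 and 86.8 CPM in untreated and 132.4, 121.6, 113.8, 113.4 and 119.0 CPM in treated libraries. No untreated library reached the treated range (1.66-fold, log2 0.73 ± 0.10, edgeR adjusted p 0.000898), and the call held in all 21 alternative fits run, among them that without untreated mice 1 to 3. Of 14 genes of pyruvate entry 3 rose, Pdk2, its relative Pdk4 (3.88 ± 0.73 and 6.32 ± 1.61 CPM) and Ldhb, the lactate dehydrogenase subunit of oxidative tissue (174.7 ± 7.93 and 200.9 ± 8.13 CPM).

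Of 16 genes of the tricarboxylic acid cycle and its feeding reaction 4 rose and 0 fell, among them Pcx (pyruvate carboxylase, log2 fold change 0.35 ± 0.06), Ogdhl (0.28 ± 0.06) and Idh3b (0.15 ± 0.04). The median of that list was 0.11. With library totals alone 2 of the 16 passed, Pcx and Ogdhl. The log2 fold change of Pdk2 without untreated libraries 1 to 3 was 0.75 ± 0.14 (edgeR adjusted p 0.0474).

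Among the remaining lists, Coq10a, a coenzyme Q binding protein, rose (log2 fold change 0.18 ± 0.05), 1 of 12 carriers and other subunits. Mfn2, which fuses mitochondria and tethers them to the endoplasmic reticulum, and the import pore subunit Timm17a rose (0.21 ± 0.05 and 0.20 ± 0.05), and the import receptor Tomm70a fell (-0.23 ± 0.06), out of 20 genes of import and outer membrane. Ckmt1, the mitochondrial creatine kinase of brain, rose by 0.21 ± 0.06 as 1 of 8 nucleotide and phosphate carriers, and Slc25a27, a brain uncoupling protein relative, by 0.19 ± 0.05 as 1 of 6 uncoupling and inhibitor genes. Except Pdk2, every gene past the threshold in the lists outside the members lost its call without untreated libraries 1 to 3 and with the prefix as a term, with edgeR adjusted p values from 0.0567 to 0.5, and kept its direction. With library totals alone Idh3b, Ldhb, Coq10a, Mfn2, Timm17a, Ckmt1, Slc25a27, Mrps34 and Mrpl4 did not pass either.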

How the data were processed

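Per the labels' protocols, total RNA (1 µg per pup, RNeasy Mini Plus) of 10 whole brains was made into NEBNext Ultra II Directional libraries. Partek and mm10 stand in the submitters' processing notes. For the aligner, counter, annotation and strand, the entry is not given in the sources used here. The values deposited by the authors are estimated counts (expected counts) per Ensembl gene. The deposited table's title calls them normalized, but totals differ between libraries and 86.8% to 87.6% of values above 0 are exactly whole (no tolerance), so they were rounded and tested as counts, the branch fixed for that case. Fractional counts occurred in 26 of the 93 members tested, and exons of 39 overlap those of another gene on the same or the opposite strand, whose reads may be mixed in.

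Of 55471 identifiers, 55230 were found in GENCODE M21 (GRCm38). Genes with 10 or more counts in 5 or more libraries were scaled by TMM and fitted with edgeR 4.0.16 (R 4.3.3) with no covariate. Alternatives used DESeq2 1.42.0 and limma 3.58.1, other scalings and filters, libraries left out, the name prefix as a term and copies added, 21 in all; the last 2 were chosen after seeing the data. Copies were found with BLAST 2.17.0, against the shortest coding transcript with a RefSeq mRNA. Sequences come from GENCODE M21 and RefSeq. Figures were drawn with matplotlib 3.10.9.

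The members and lists were chosen with earlier results of these data known. Genes named are all members past the threshold, the 13 mitochondrial ones, for each complex the most abundant and the most raised and lowered nuclear member, an isoform panel, core subunits, members that failed the filter, up to 4 genes past the threshold per related list, and 5 regulators. Ndufa3, Sdhb, Sdhc, Sdhd, Ndufa12 and the pseudogenes were added after their values were seen. Some genes that the rule names are left out of the text. No protein sequences were used here. Mice are treated as separate animals.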

Additional observations from a re-analysis of the deposited data

Results flagged for a closer look

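In groups of 5 libraries, 8 values of 110 groups of named members stood apart from the other 4 by more than Dixon's 95% criterion (0.71 of the range), where chance alone gives about 5% of groups. Ndufs5 was flagged in both groups, with untreated mouse 5 at 21.7 CPM (others 15.7 to 17.0) and treated mouse 8 at 9.43 CPM (others 15.2 to 17.3), the mice in which its copy BC002163 was lowest (1.24 CPM) and highest (8.98 CPM). mt-Atp6 was at 7649 CPM in untreated mouse 4 (others 6049 to 6501). Sdhc was at 75.8 CPM in treated mouse 8 (others 79.8 to 81.0), and Sdhd at 53.1 CPM in untreated mouse 5 (others 58.2 to 60.2). Uqcrfs1 was at 60.2 CPM in treated mouse 7 (others 66.7 to 68.7), where Atp5e was at 28.0 CPM (others 24.0 to 24.9). Cox7a2l was at 38.9 CPM in treated mouse 6 (others 43.2 to 43.9).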

How the results depend on the processing

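Members past the threshold numbered 8 in the reported fit, 4 with library totals alone, 14 with DESeq2, 0 without untreated libraries 1 to 3 and 0 with the library name prefix as a term. Leaving out 1 library at a time gave 5 to 11 members and 1084 to 2343 genes past the threshold (1084 without untreated mouse 4, 1116 without mouse 3, 1235 without mouse 1). Without untreated libraries 1 to 3, 105 genes passed in place of 1926, and with the prefix term 180; the first has fewer samples, and the cause was not tested further. The median of the nuclear members was -0.0024 with library totals alone, and that of the mitochondrial members was -0.036 without untreated libraries 1 to 3 and -0.031 with the prefix term. No member past the threshold changed direction in any alternative. Of the 21 alternatives, the call was missed in 2 for Cox4i1, Cox6a1, Cox8a and Ndufs7, in 3 for Ndufs3, in 10 for Ndufa8 and in 11 for Uqcrc1 and Ndufa4l2 (Ndufa4l2 had 20 alternatives). Adjusted p values ranged over these alternatives from 3.50e-05 to 0.125 for Cox6a1 and from 0.0114 to 0.32 for Uqcrc1. No paired analysis was possible because the groups share no replicate numbers. Levels of Cox8b, Cox8c and Cox7b2 are limited by depth, at a few counts per library.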
